A study of Mus musculus with 11 samples.

Results

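The Hippo-YAP pathway was followed in mouse liver through 10 genes, found by their symbols in the table of read counts: the co-activators *Yap1* and *Wwtr1* (which encodes TAZ), their DNA-binding partner *Tead1*, the kinases *Lats1* and *Lats2*, the binding proteins *Amotl2* and *Ajuba*, and the target genes *Ccn1*, *Ccn2* and *Axl*. All 10 were present among the 13669 genes of the table and had enough reads to be tested. The livers came from 11 wild-type male C57BL/6J mice on regular chow, of which 5 received the control virus (AAV-NC) and 6 the inhibitor virus (AAV-TuD). Both groups therefore carried a recombinant adeno-associated virus (rAAV) of serotype 8, whose LP1 promoter restricts expression to hepatocytes. In the AAV-TuD group it expressed a tough decoy, a hairpin RNA that binds *miR-379* and *miR-541*, and in the AAV-NC group a negative control sequence. The study's methods state delivery of the mice at 6 weeks of age, 4 weeks of acclimation, a fast of 5 to 6 h before killing and, for its TuD studies in general, killing 4 weeks to 3 months after the rAAV. The time of each animal is not given in the text. The comparison asks how the liver transcriptome differs when the decoy against both miRNAs is expressed in hepatocytes.

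The Hippo pathway limits organ growth through a chain of kinases. The kinases MST1 and MST2 (*Stk4* and *Stk3*), helped by NF2 at the membrane, activate LATS1 and LATS2 with their MOB1 cofactors. LATS kinases phosphorylate YAP and TAZ, which are then held in the cytoplasm and degraded, whereas unphosphorylated YAP and TAZ enter the nucleus, bind TEAD factors and turn on genes such as *Ccn1*, *Ccn2*, *Ankrd1* and *Axl*. In the liver the pathway sets organ size and the identity of bile duct cells, and YAP and TAZ are also active in stellate cells and macrophages. Transcript levels do not show the phosphorylation or location of these proteins, which were not measured here.

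The 2 miRNAs bound by the decoy are shown as their 5p arms, the arm not being named in the labels. The bases that pair with targets are marked, because exact matches to these bases were counted. Per the labels the decoy also lowers the wider cluster that holds the 2 miRNAs, and sites for its other miRNAs were not searched here. Capitals mark the seed, bases 2 to 8. Their precursors lie on the + strand of chromosome 12 of GRCm38, with the mature sequences at chr12:109709065-109709085 and chr12:109742422-109742446 (RefSeq sequences, GRCm38.p6).
miR-379-5p: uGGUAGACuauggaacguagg
miR-541-5p: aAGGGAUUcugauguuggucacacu
The complement of the seed, GTCTACC for miR-379-5p, was found in the longest annotated 3′ UTR (untranslated region) of 567 of 10922 genes (5.19%), and AATCCCT for miR-541-5p in 977 (8.95%). The median 3′ UTR searched was 1214 bases long. Shorter matches, and sites outside the 3′ UTR, were not searched. Among the 10 Hippo-YAP genes, 1 held a miR-379-5p match and 4 held a total of 5 miR-541-5p matches. These sites are shown with their flanks on the gene's strand, the match in capitals. They are places where these 2 miRNAs could pair with the genes, among the kind of site searched.
Amotl2, miR-379-5p match, chr9:102732367-102732395 (+): acatgtgacagGTCTACCagatgttcctc
Amotl2, miR-541-5p match, chr9:102732441-102732469 (+): tctgctttttaAATCCCTgtgtttcgtgc
Yap1, miR-541-5p match, chr9:7932900-7932928 (-): gcttctagaagAATCCCTtattttcaagg
Tead1, miR-541-5p match, chr7:112902118-112902146 (+): tcccagtctctAATCCCTggctccttctt
Tead1, miR-541-5p match, chr7:112902601-112902629 (+): cccccgcccccAATCCCTcagtttttcaa
Ccn2, miR-541-5p match, chr10:24598468-24598496 (+): aaatgtggtcaAATCCCTgttggtgaaca
*Wwtr1* and *Axl*, the genes that changed, held neither of these 2 matches in 3′ UTRs of 3277 and 1389 bases. *Amotl2*, the gene that held both, did not pass the test. A longer 3′ UTR has more chances of a match, and that of *Tead1*, with 2 matches, has 8147 bases.

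TEAD factors bind the core motif GGAATG, which reads CATTCC from the opposite strand. It was sought on both strands in the 250 bases before each RefSeq start site, since the target genes in the set are known through TEAD. Of all 32851 such windows, 4153 held the motif (12.6%). The table of promoters has no entry for *Tead1* and *Ccn2*. Of the other 8 Hippo-YAP genes, which had 10 windows, 6 held the motif, a count of genes where the share above counts windows. The motif is shown here in capitals on the gene's strand with 12 flanking bases (GRCm38).
Wwtr1, chr3:57576029-57576058 (-): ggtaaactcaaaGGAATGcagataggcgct
Axl, chr7:25788949-25788978 (-): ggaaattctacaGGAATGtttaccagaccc
Yap1, chr9:8004720-8004749 (-): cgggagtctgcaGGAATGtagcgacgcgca
Ccn1, chr3:145650071-145650100 (-): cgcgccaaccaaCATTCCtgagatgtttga
Amotl2, chr9:102717727-102717756 (+): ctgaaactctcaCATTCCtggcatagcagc
Ajuba, chr14:54577830-54577859 (-): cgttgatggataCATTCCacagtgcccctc
Ajuba, chr14:54577808-54577837 (-): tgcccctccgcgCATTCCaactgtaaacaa
*Lats1* and *Lats2* did not hold these letters in the window. Genes with the motif included those that rose (*Wwtr1*, *Axl*) and those that did not pass the test (*Yap1*, *Ccn1*, *Amotl2*, *Ajuba*). A match of letters describes the window and is not a binding site.

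Levels are given as CPM, the reads of a gene scaled to a fixed library total, with library totals adjusted by the TMM method. The libraries read the 3′ end of each transcript, so that CPM compares transcripts without a correction for length. The livers had between 8148531 and 12043959 reads on genes. Major urinary protein (*Mup*) transcripts took 38.6% of the reads in AAV-NC 7, 30.9% in AAV-TuD 3 and 28.4% in AAV-TuD 5 against 8.09 to 18.7% in the other livers, so values without these 3 livers are given where a result turns on them. Of the 13334 genes tested across the table, 11.6% differed at an adjusted p under 0.05 (edgeR quasi-likelihood test, Benjamini-Hochberg adjustment over all genes), 7.24% being higher with AAV-TuD and 4.33% lower.

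Of the 10 Hippo-YAP genes, 2 rose with AAV-TuD, *Wwtr1* and *Axl*, and none fell. Their values in the AAV-TuD livers lay above all AAV-NC values, a separation seen in either direction for 7.39% of all genes. The median log2 fold change of the 10 genes was 0.25, with 7 of them above 0, against 0.00 over all genes tested. In AAV-NC livers *Yap1* had the highest level and lay clear of the next gene, *Tead1*. The ranges of *Tead1*, *Lats1* and *Amotl2* overlapped from one to the next, *Lats2* lay below *Amotl2* and overlapped *Wwtr1*, and *Axl*, *Ajuba*, *Ccn2* and *Ccn1* followed with overlapping ranges.

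**Figure D1:**
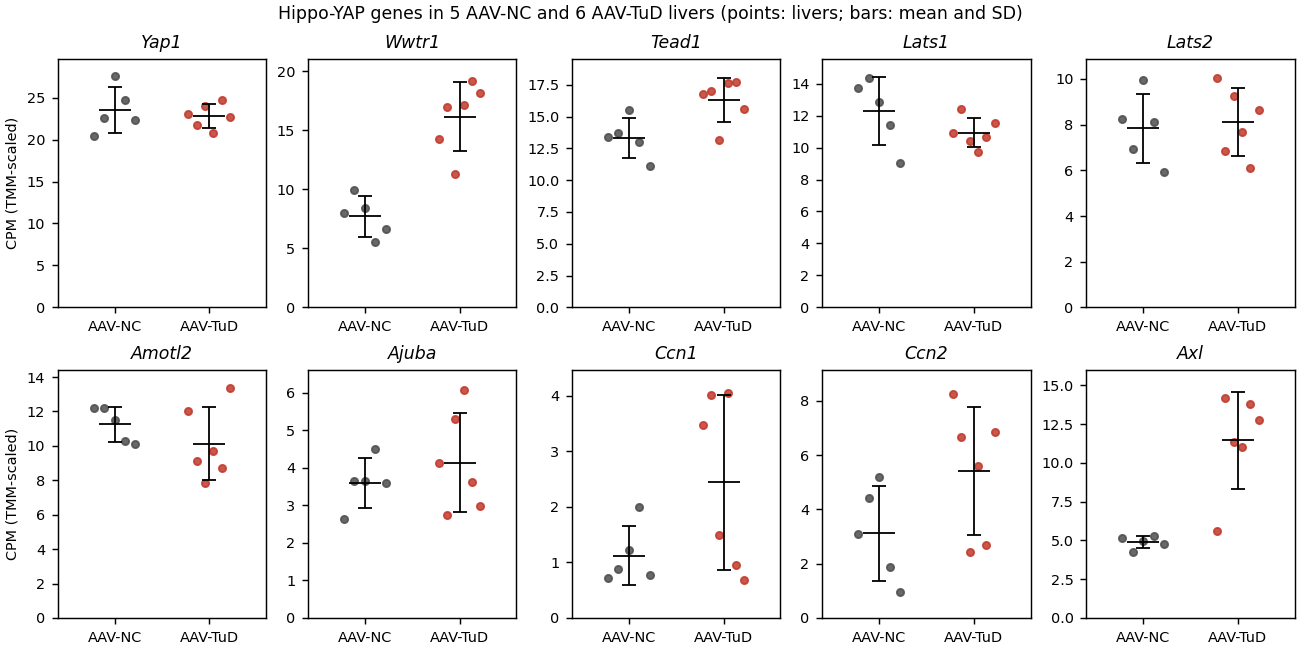
Level of the 10 Hippo-YAP genes in each liver, in TMM-scaled CPM on axes that start at 0, with AAV-NC livers in grey (n = 5) and AAV-TuD livers in red (n = 6), and bars for the mean and SD. *Wwtr1* and *Axl* were above the highest AAV-NC liver in 6 of 6 AAV-TuD livers, with AAV-TuD 3 as the lowest point for *Axl* at 5.63 CPM.

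The paralogous co-activators behaved differently. *Wwtr1* (ENSMUSG00000027803, chr3:57455649-57575910, - strand) encodes TAZ, which like YAP has no DNA-binding domain and acts through TEAD. Its level was 8.0, 9.94, 8.41, 5.51 and 6.62 CPM in AAV-NC livers 1, 2, 6, 7 and 8, and between 11.3 and 19.1 CPM in the AAV-TuD livers. No AAV-TuD liver reached down to the AAV-NC range, and the lowest of them was AAV-TuD 5. The mean rose from 7.70 ± 1.70 (SD, n = 5) to 16.2 ± 2.90 CPM (n = 6), a 2.11-fold rise with a 95% interval of 1.67 to 2.66 (log2 fold change 1.07, SE 0.16, edgeR adjusted p = 0.000936). By p value it was the gene with rank 78 among the 13334 tested. The lowest *Wwtr1* value of each group came from a liver with a high *Mup* share (AAV-NC 7 and AAV-TuD 5). Without the 3 high-*Mup* livers the log2 fold change was 1.12 (edgeR adjusted p = 0.000333).

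*Yap1* (ENSMUSG00000053110, chr9:7931999-8004596, - strand) encodes the co-activator most studied in liver growth. It had 20.4, 22.5, 27.6, 24.7 and 22.4 CPM in the AAV-NC livers and 20.7 to 24.7 CPM in the AAV-TuD livers, so that every AAV-TuD liver fell within the AAV-NC range. The log2 fold change was -0.04 (95% interval -0.23 to 0.14, edgeR adjusted p = 0.808). The balance between the paralogs was compared within each liver as the difference of their log2 CPM, which depends on the scaling of the library only through the small prior count (a shift of 1.09 with library size alone). *Wwtr1* minus *Yap1* was -1.61 ± 0.374 (SD, n = 5) in AAV-NC livers and -0.51 ± 0.313 (n = 6) in AAV-TuD livers, a shift of 1.10 on the log2 scale in which 6 of 6 AAV-TuD livers lay above all AAV-NC livers. The two-sided exact permutation p was 0.00433, and 0.013 after adjustment over the 3 pairs compared. Expressed as reads, *Wwtr1* made up 18.3 to 30.6% of the summed *Wwtr1* and *Yap1* reads with AAV-NC and 31.9 to 45.3% with AAV-TuD. *Yap1* kept the larger share of the pair's reads in every liver.

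**Figure D2:**
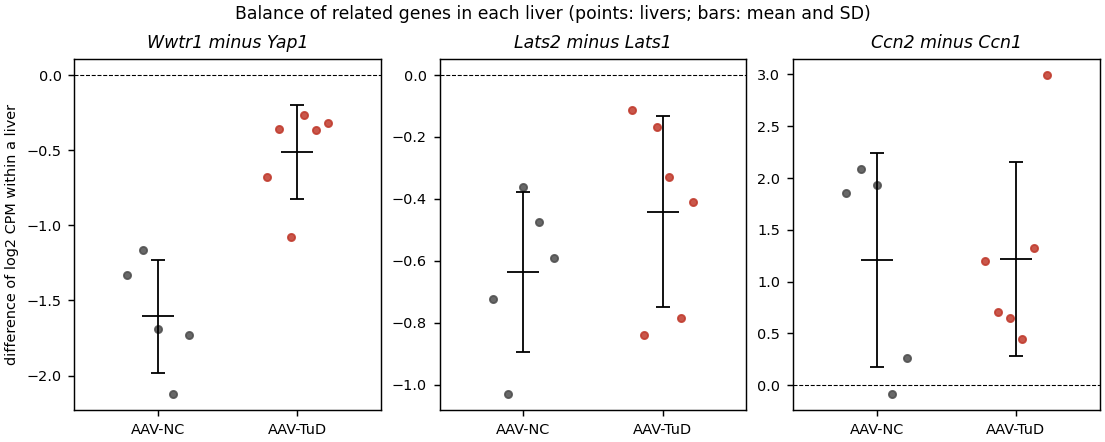
Difference of log2 CPM between related genes within each liver, for *Wwtr1* minus *Yap1*, *Lats2* minus *Lats1* and *Ccn2* minus *Ccn1*, with AAV-NC livers in grey, AAV-TuD livers in red and bars for the mean and SD. The *Wwtr1* to *Yap1* difference was between -2.12 and -1.16 with AAV-NC and between -1.08 and -0.27 with AAV-TuD, whereas the groups overlapped for the other pairs.

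*Tead1* (ENSMUSG00000055320, chr7:112679318-112906807, + strand), which binds DNA for both co-activators, had 13.4, 13.7, 15.5, 13.0 and 11.1 CPM in the AAV-NC livers and between 13.2 and 17.8 CPM in the AAV-TuD livers, with a median of 16.9. All AAV-TuD livers but AAV-TuD 5 were above the highest AAV-NC liver. The log2 fold change of 0.30 (SE 0.11) had an edgeR adjusted p of 0.0851 and did not pass. Without AAV-TuD 5 it was 0.35 with an adjusted p of 0.0384, and without all 3 high-*Mup* livers, AAV-TuD 5 among them, it was 0.35 with an adjusted p of 0.0851 (edgeR), which did not pass. Its relatives *Tead3* (log2 fold change -0.01, adjusted p = 0.978) and *Vgll4* (-0.21, adjusted p = 0.354), whose product competes with YAP for TEAD, did not pass either. Among the 5 tested genes of the list of co-activators and TEAD partners, *Wwtr1* was the gene called. *Tead2* and *Tead4* were not analysed here.

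The LATS kinases, which phosphorylate YAP and TAZ, did not pass the test. *Lats1* (ENSMUSG00000040021, chr10:7681214-7716460, + strand) had 13.7, 14.4, 12.8, 11.4 and 9.05 CPM in AAV-NC livers and 9.72 to 12.4 CPM in AAV-TuD livers, with overlapping groups. Its log2 fold change was -0.16 (95% interval -0.42 to 0.10, edgeR adjusted p = 0.433). *Lats2* (ENSMUSG00000021959, chr14:57689662-57758388, - strand), itself a target of YAP in negative feedback, had 8.24, 6.92, 9.96, 8.14 and 5.94 CPM against 6.12 to 10.05 CPM, and a log2 fold change of 0.05 (95% interval -0.29 to 0.38, edgeR adjusted p = 0.897). The upper bounds of both intervals lie below the lower bound for *Wwtr1*, 0.74. The balance of *Lats2* to *Lats1* within a liver moved by 0.20 on the log2 scale (exact permutation adjusted p = 0.419).

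Of the 22 listed genes of the kinase cassette, which include *Lats1* and *Lats2*, 19 were tested. Of these, with a median log2 fold change of -0.02, none rose and 1 fell (7.24% and 4.33% of all genes). The gene that fell was *Nf2*, which encodes merlin, a membrane-linked activator of LATS. It had 20.1 ± 2.02 CPM (n = 5) with AAV-NC and 16.0 ± 1.73 CPM (n = 6) with AAV-TuD, a log2 fold change of -0.33 (SE 0.10, edgeR adjusted p = 0.0398). The call was lost in 8 of the 11 fits that left out 1 liver, with adjusted p values up to 0.0951. In these fits the log2 fold change stayed between -0.38 and -0.29. With library size alone, where the median of all genes was 0.23, it was -0.10 (edgeR adjusted p = 0.757). The kinases *Stk3* and *Stk4* had log2 fold changes of -0.02 and -0.03, and the cofactors *Mob1a* and *Mob1b* -0.11 and -0.15, none past the threshold (edgeR adjusted p 0.396 to 0.961). The summed level of the cassette was 489.5 to 523 CPM with AAV-NC and 487 to 526.4 CPM with AAV-TuD, so that the groups overlapped almost fully. Among 15 tested genes of the membrane and polarity proteins that feed into the pathway, *Cdh1* (E-cadherin) rose (log2 fold change 0.39, edgeR adjusted p = 0.0205) and *Dlg1*, a scaffold of cell polarity, fell by 0.27 on the log2 scale (edgeR adjusted p = 0.0461). The *Dlg1* call was lost in 9 of 11 fits without 1 liver, and with library size alone its log2 fold change was -0.04 (edgeR adjusted p = 0.915).

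**Figure D3:**
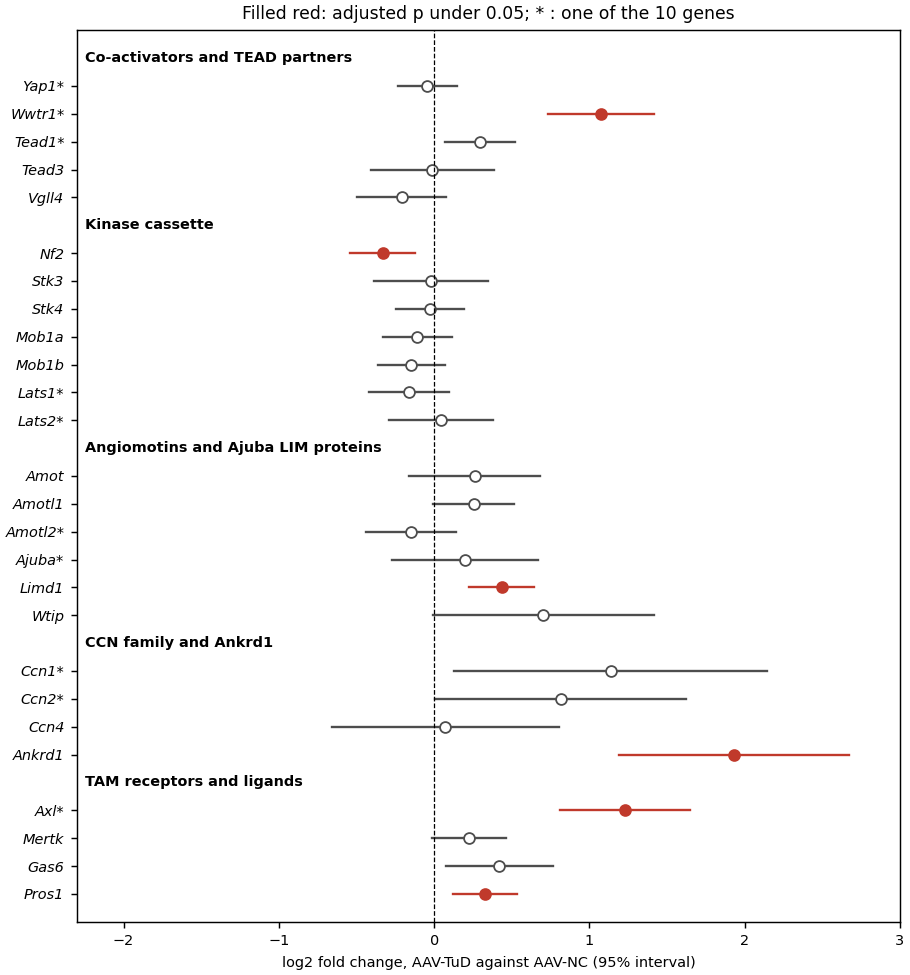
Log2 fold change of AAV-TuD against AAV-NC livers with 95% intervals for the 10 Hippo-YAP genes (marked with an asterisk) and their relatives, grouped by role, with filled red points for an adjusted p under 0.05. Points of the kinase cassette lie between -0.33 and 0.05, whereas *Ankrd1* at 1.93, *Axl* at 1.23 and *Wwtr1* at 1.07 stand to the right.

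Angiomotins bind YAP and TAZ at cell junctions, and the LIM proteins of the Ajuba group hold LATS in check. *Amotl2* (ENSMUSG00000032531, chr9:102716672-102733418, + strand), a target of YAP as well as its binding partner, had 12.2, 12.2, 11.5, 10.3 and 10.1 CPM in the AAV-NC livers and 7.86 to 13.3 CPM in the AAV-TuD livers. Of the AAV-TuD livers, 4 of 6 were below the lowest AAV-NC liver, while AAV-TuD 11 was above the highest. The log2 fold change was -0.15 (95% interval -0.44 to 0.14, edgeR adjusted p = 0.539). *Ajuba* (ENSMUSG00000022178, chr14:54567472-54577558, - strand) had 2.63, 3.65, 3.65, 4.51 and 3.60 CPM against 2.73 to 6.07 CPM, from 22 to 75 reads per liver, and a log2 fold change of 0.20 (95% interval -0.27 to 0.67, edgeR adjusted p = 0.624). Of the 6 genes in these families 1 rose (16.7%, against 7.24% of all genes). It was *Limd1*, the relative of *Ajuba* that also binds LATS, with 19.1 ± 2.38 CPM (n = 5) and 25.8 ± 2.34 CPM (n = 6), no overlap between the groups, and a log2 fold change of 0.43 (SE 0.10, edgeR adjusted p = 0.0106). *Amot*, *Amotl1* and *Wtip* had log2 fold changes of 0.26, 0.25 and 0.70 with edgeR adjusted p values of 0.44, 0.203 and 0.197.

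*Ccn1* and *Ccn2*, secreted matrix proteins also called CYR61 and CTGF, are the most used readouts of YAP and TAZ activity. *Ccn1* (ENSMUSG00000028195, chr3:145646976-145649981, - strand) had 0.716, 0.881, 1.22, 2.0 and 0.779 CPM in the AAV-NC livers. In the AAV-TuD livers it had 3.48 CPM in AAV-TuD 3, 4.01 in AAV-TuD 4, 1.49 in AAV-TuD 5, 4.05 in AAV-TuD 9, 0.949 in AAV-TuD 10 and 0.684 in AAV-TuD 11. The AAV-TuD group was thus divided, with 3 livers above all AAV-NC livers and 3 within or below their range. The log2 fold change was 1.14 (SE 0.47, 95% interval 0.13 to 2.14) with an unadjusted p of 0.0294 and an adjusted p of 0.137 in edgeR, and did not pass. The counts behind it were low, 6 to 50 reads per liver. The coefficient of variation between livers was 47.4% with AAV-NC and 64.3% with AAV-TuD, where counting error alone would give 32.3% and 19.1%.

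*Ccn2* (ENSMUSG00000019997, chr10:24595442-24598683, + strand) had 3.10, 4.41, 5.20, 1.88 and 0.973 CPM in the AAV-NC livers and 2.44 to 8.26 CPM in the AAV-TuD livers, with a median of 6.12. Of the AAV-TuD livers, 4 of 6 were above all AAV-NC livers and 2 (AAV-TuD 5 and 10) were within their range. The log2 fold change was 0.81 (SE 0.38, 95% interval 0.00 to 1.62), with an unadjusted p of 0.0489 and an adjusted p of 0.188 in edgeR, which did not pass. Without the 3 high-*Mup* livers it was 0.69 (edgeR adjusted p = 0.293). High *Ccn2* and high *Ccn1* did not always fall in the same liver: AAV-TuD 11 had 6.84 CPM of *Ccn2* and the lowest *Ccn1* of its group. The difference of their log2 CPM was 1.21 ± 1.03 (SD, n = 5) in AAV-NC and 1.22 ± 0.933 (n = 6) in AAV-TuD livers (exact permutation adjusted p = 0.987). *Ccn2* had 10 to 88 reads per liver. The intervals of both genes reach from close to no change to beyond the rise of *Wwtr1*, so that a change could not be resolved at this depth and spread. *Ccn4* had a log2 fold change of 0.07 (adjusted p = 0.925), and the other members of the family were not analysed here.

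*Axl* (ENSMUSG00000002602, chr7:25757273-25788705, - strand) encodes a receptor tyrosine kinase of the TAM family, which binds GAS6 and takes part in the uptake of dead cells by macrophages. It had 5.13, 4.28, 4.98, 5.26 and 4.77 CPM in the AAV-NC livers, a narrow range, and 5.63, 14.2, 11.4, 11.01, 13.8 and 12.7 CPM in AAV-TuD 3, 4, 5, 9, 10 and 11. AAV-TuD 3 stood next to the AAV-NC livers and the other AAV-TuD livers were far above. The mean rose from 4.88 ± 0.384 (SD, n = 5) to 11.5 ± 3.13 CPM (n = 6), a 2.35-fold rise with a 95% interval of 1.75 to 3.14 (log2 fold change 1.23, SE 0.20, edgeR adjusted p = 0.00147). Without AAV-TuD 3 the log2 fold change was 1.37 (adjusted p = 1.61e-05), and without the 3 high-*Mup* livers 1.43 (adjusted p = 8.50e-05, edgeR in each case). The other TAM receptor tested, *Mertk*, had 20.9 ± 2.25 CPM and 24.4 ± 3.70 CPM (log2 fold change 0.22, edgeR adjusted p = 0.218). Of the ligands, *Gas6* had a log2 fold change of 0.42 (edgeR adjusted p = 0.108), and *Pros1* rose from 41.6 ± 5.08 to 52.2 ± 5.94 CPM (log2 fold change 0.33, edgeR adjusted p = 0.0386), a call lost in 7 of 11 fits without 1 liver. *Tyro3* was not analysed here.

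Beyond *Axl*, a wider list of 33 genes known to respond to YAP or TAZ was counted, of which 26 were tested. With AAV-TuD 8 rose (30.8%, against 7.24% of all genes), 1 fell (4.33% of all genes) and 17 did not pass, and the median log2 fold change was 0.42. Without the 6 target genes already described, 7 of 20 rose. *Ankrd1*, a nuclear repeat protein and a widely used YAP target, had 0.597, 1.26, 1.33, 0.125 and 0.487 CPM in AAV-NC livers and 1.97 to 3.79 CPM in AAV-TuD livers, without overlap. Its log2 fold change was 1.93 (SE 0.35, edgeR adjusted p = 0.00323), from 1 to 44 reads per liver. *Ccdc80*, a matrix protein, had 10.8 ± 1.5 CPM (n = 5) and 20.2 ± 3.53 CPM (n = 6), a log2 fold change of 0.90 (SE 0.13, edgeR adjusted p = 0.000807).

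The other risers of the list are named here after their values were seen. *Rbms3* rose by 0.75, *Myof* by 1.18, *Tgfb2* by 1.24, *Arhgef17* by 0.79 and *Birc5*, an inhibitor of apoptosis that dividing cells also make, by 1.6 on the log2 scale (edgeR adjusted p 0.00355 to 0.0345). The *Arhgef17* call was lost in 6 of 11 fits without 1 liver. The gene that fell was *Nf2*, a feedback target as well as a member of the cassette. Genes of the list with values near 0 included *Wwc1* (log2 fold change 0.03), *Crim1* (-0.05) and *Dock5* (-0.04), with edgeR adjusted p values of 0.845 to 0.906. The summed level of the tested targets was 178.5 to 202 CPM in AAV-NC and 217.5 to 255 CPM in AAV-TuD livers, higher in 6 of 6. The promoter table held 23 genes of the list, of which 8 had the TEAD motif. Of the 6 risers with an entry, 2 had it, *Axl* and *Ankrd1*, and the sites of *Ankrd1* are shown on its strand (GRCm38).
Ankrd1, chr19:36120037-36120066 (-): gtcactgccaaaGGAATGaccctctcacat
Ankrd1, chr19:36119950-36119979 (-): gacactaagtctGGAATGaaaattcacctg

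**Figure D4:**
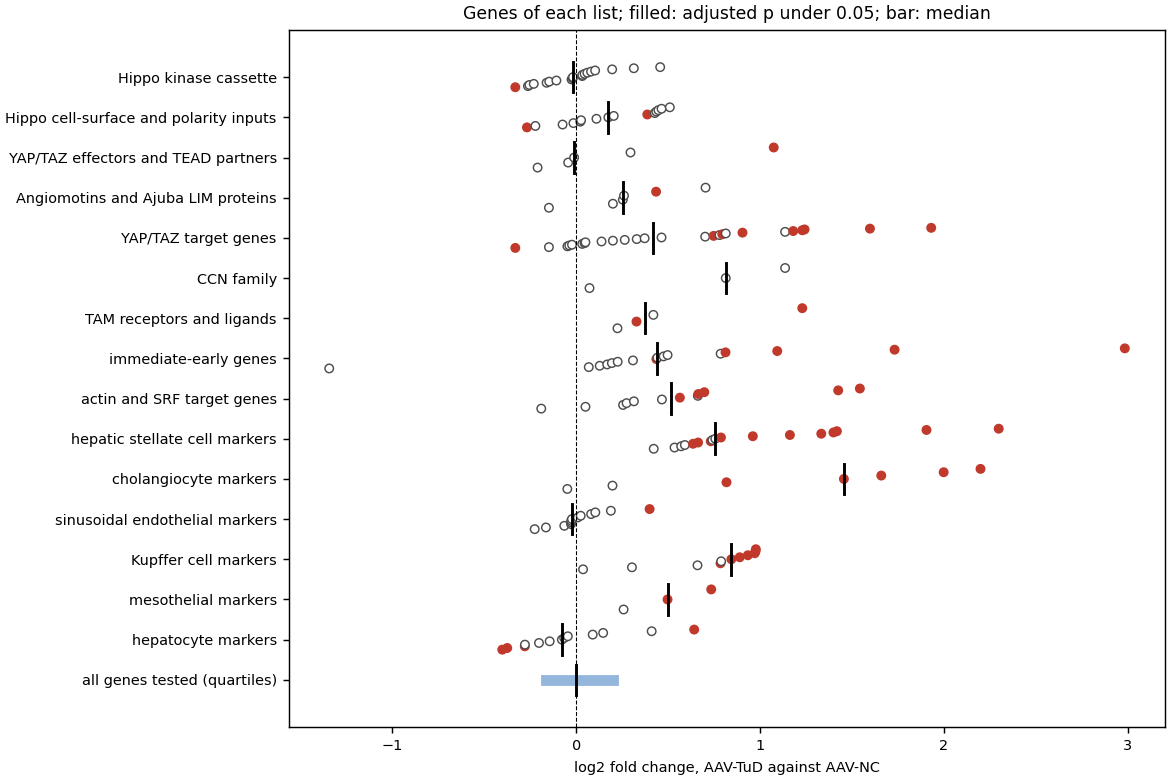
Log2 fold change of AAV-TuD against AAV-NC livers for every tested gene of each list, with filled red points for an adjusted p under 0.05, a bar for the list's median and, in the lowest row, the quartiles of all genes tested. The points of the kinase cassette surround 0 (median -0.02), those of the YAP/TAZ target genes reach from -0.33 to 1.93 (median 0.42), and the stellate, cholangiocyte and Kupffer cell markers lie further to the right.

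In whole liver, more cells of a type and more RNA per cell cannot be told apart, and the decoy is expressed in hepatocytes while *Wwtr1*, *Axl* and several targets are also made by other cells. Markers of some of these cells moved with the groups. Over all genes tested 7.24% rose and 4.33% fell. Of 17 stellate cell markers 11 rose (median log2 fold change 0.76), and their summed level was 265 to 349.9 CPM with AAV-NC and 455 to 604 CPM with AAV-TuD. Of 7 tested cholangiocyte markers 5 rose (median 1.46), with sums of 32.3 to 54.5 and 62.2 to 95.3 CPM. Both sums were higher in 6 of 6 AAV-TuD livers, as was *Wwtr1*. AAV-TuD 5, lowest for *Wwtr1* in its group, was also lowest for both sums. The order of the other livers matched only in part. AAV-TuD 10, highest for *Wwtr1* (19.1 CPM), was highest for the stellate sum (604 CPM). Its cholangiocyte sum of 81.6 CPM was below the 93.3 CPM of AAV-TuD 3, which had 14.3 CPM of *Wwtr1*. AAV-NC 7, lowest of all livers for *Wwtr1* (5.51 CPM), had a cholangiocyte sum of 48.6 CPM, above the 37.0 CPM of AAV-NC 1. The largest part of the cholangiocyte sum came from *Sox9* (mean 22.9 CPM with AAV-NC and 40.2 CPM with AAV-TuD), named after its value was seen. *Spp1* had 5.08 and 23.1 CPM. The defining bile duct genes were scarce: *Epcam* had 0.664 ± 0.322 CPM (n = 5) with AAV-NC and 2.60 ± 1.0 CPM (n = 6) with AAV-TuD, and *Krt7* was not analysed here.

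Of 11 tested Kupffer cell markers 7 rose (median log2 fold change 0.84), and their sum was 172 to 232 CPM with AAV-NC. It was 265 to 463 CPM in all AAV-TuD livers but AAV-TuD 3, which had 184.8 CPM, inside the AAV-NC range. This is the liver whose *Axl* level stood next to the AAV-NC livers. Among the other AAV-TuD livers the order of *Axl* and the sum differed in part. AAV-TuD 11 had the lowest sum of them (265 CPM) and 12.7 CPM of *Axl*, against 316 and 11.01 CPM in AAV-TuD 9. AAV-TuD 10 was highest for the sum, with 13.8 CPM of *Axl*. In AAV-TuD 3 the *Wwtr1* level of 14.3 CPM and the cholangiocyte sum of 93.3 CPM were in the AAV-TuD range. *Axl* and *Wwtr1* thus did not part from the AAV-NC group in the same livers to the same degree. Of 13 sinusoidal endothelial markers 1 rose (7.69%, against 7.24% of all genes). The list's median was -0.02, and the sums were 339 to 371 and 339 to 369.9 CPM. The part of these cell types in the *Wwtr1* and *Axl* results was not tested.

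**Figure D5:**
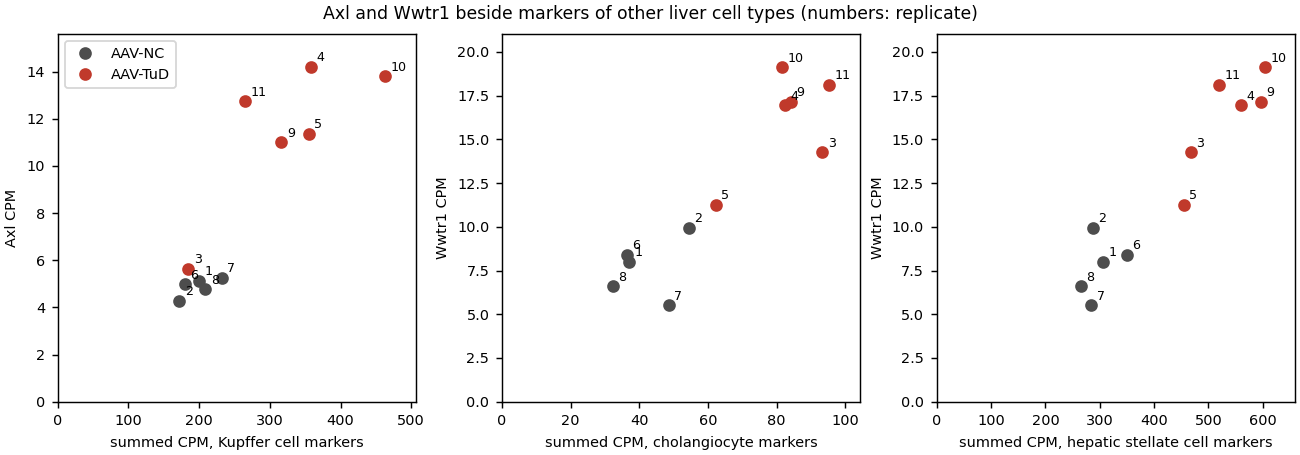
Level of *Axl* against the summed CPM of Kupffer cell markers, and of *Wwtr1* against the summed CPM of cholangiocyte and of stellate cell markers, with 1 point per liver labelled by its replicate number, AAV-NC in grey and AAV-TuD in red. AAV-TuD 3 sits next to the AAV-NC livers in the *Axl* panel, with 184.8 CPM of markers, inside their range, and 5.63 CPM of *Axl*, above it. In the *Wwtr1* panels AAV-TuD 3 sits apart from the AAV-NC livers.

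Of 3 tested mesothelial markers 2 rose, *Krt8* and *Krt18*, which hepatocytes and bile duct cells also make. For comparison with the lists here, 7.24% of all genes rose and 4.33% fell. The *Krt18* call (edgeR adjusted p = 0.0424) was lost in 8 of 11 fits without 1 liver. The defining *Msln*, *Upk3b* and *Wt1* were not analysed here. Of 13 tested hepatocyte markers 1 rose, the cytochrome P450 gene *Cyp3a11* (log2 fold change 0.64, edgeR adjusted p = 0.00409), and 3 fell, *Apob*, *Hnf4a* and *Asgr1*, by 0.40, 0.38 and 0.28 on the log2 scale (edgeR adjusted p 0.0146, 0.015 and 0.0225). With library size alone these 3 genes did not pass (log2 fold changes -0.18, -0.15 and -0.05, edgeR adjusted p 0.524 to 0.878), and *Asgr1* was also lost in 2 of 11 fits without 1 liver. The median of the hepatocyte list was -0.08, while its summed level was higher in 6 of 6 AAV-TuD livers, at 47880 to 54300 CPM against 39220 to 45920 CPM with AAV-NC. Programs whose factors work beside YAP and TAZ were counted as well. Of 16 immediate-early genes 5 rose, among them *Klf6* (log2 fold change 1.09) and *Jun* (0.81). So did 5 of 12 genes of the actin cytoskeleton and its factor SRF, among them *Tagln2* (1.54) and *Tpm1* (0.70). Each gene named from these lists had an edgeR adjusted p of at most 0.00564. The immediate-early sum was 140 to 167 CPM with AAV-NC and 182 to 248 CPM with AAV-TuD, without overlap. The actin and SRF sum was 1114 to 1476 CPM with AAV-NC and 1205 to 1492 CPM with AAV-TuD, so that the groups overlapped. The part of these programs in the *Wwtr1* and target gene results was not tested.

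The genes most like *Wwtr1* across the 11 livers, by Pearson's r of log2 CPM after each group's mean was removed, were *Rtn4* (r = 0.940, Spearman's rho 0.782), *Ano6* (0.938 and 0.909) and *Nxt2* (0.907 and 0.782) among 8371 genes. Those most like *Axl* were *Itpk1* (0.941 and 0.718), *Eif6* (0.933 and 0.727) and *Tmem9b* (0.920 and 0.718). Without the 2 livers farthest from the median, r was 0.712 to 0.873 for the first group and 0.656 to 0.773 for the other. The livers share their library depth and scaling in each pair, and the values were picked as the highest of many, so they are descriptions.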

How the data were processed

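Liver RNA was analysed in 5 AAV-NC and 6 AAV-TuD mice, grouped by the sample labels. QuantSeq 3′ libraries were prepared by the authors with an input of 500 ng RNA. Reads were trimmed (BBDuk), aligned (STAR 2.5.3a, GRCm38) and assigned to genes (Rsubread), and the deposited unit is raw counts of reads per gene. DESeq2 1.38.3 is also named in the submitters' processing notes. The annotation, strand setting and handling of reads that match several genes are not given in the sources used here. Of the samples' columns, 0 were left unused.

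A gene was tested if 5 or more livers had over 10 of its reads (13334 of 13669 genes), with edgeR 4.0.16 in R 4.3.3 (TMM, quasi-likelihood test, Benjamini-Hochberg adjustment, threshold 0.05), a procedure tested on simulated data. Fold changes carry 95% intervals. Log2 CPM used a prior count of 2. Paralog differences within a liver were tested by a two-sided exact permutation test (462 splits). Alternatives were DESeq2 1.42.0, its size factors, upper-quartile factors, library size alone, removal of *Mup* genes, no filter, filterByExpr, limma-voom (limma 3.58.1) with quality weights, prior counts for the paralog differences, and each liver left out in turn. The fit without the 3 livers above 25% *Mup* reads was added after seeing the data. The methods of the study used DESeq2.

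Named genes are the 10 members, their relatives, the 3 called genes of smallest p in each direction per list, and the 3 genes most correlated with each called member (mean of at least 50 reads). The members and lists were chosen with earlier results of these data known. Positions and 3′ UTRs come from GENCODE M21 (GRCm38), which held 13323 of the tested genes, and miRNAs and promoters from RefSeq (GRCm38.p6). Nothing in the labels names a batch, and p values weigh the difference between groups against the spread between livers. Depth was 8148531 to 12043959 reads per liver, at which a gene at 1 CPM has about 10 reads.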

Additional observations from a re-analysis of the deposited data

Results flagged for a closer look

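In 138 groups of per-liver values, 9 (6.52%) had 1 liver far from the rest, measured as the gap to its nearest neighbour over the range of the group, and chance flags about 1 in 20, or 6.9 of them. For *Axl* the gap of AAV-TuD 3, the lowest of its group, was 0.627 of the range. AAV-TuD 11 was highest for the difference of *Ccn2* and *Ccn1* (0.656). AAV-TuD 10 was highest for the kinase gene *Stk4* (0.695) and lowest for its cofactor *Mob1a* (0.652). Among marker and immediate-early genes, AAV-NC 8 was lowest for *Klf6* (0.795), AAV-TuD 5 lowest for *Spp1* (0.664), AAV-NC 1 highest for *Cyp3a11* (0.825), AAV-NC 6 lowest for *Apob* (0.743) and AAV-TuD 9 highest for the summed hepatocyte markers (0.846).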

How the results depend on the processing

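*Wwtr1* and *Axl* kept their direction and their call in all 20 alternatives, with log2 fold changes of 0.98 to 1.31 and 1.16 to 1.5, and the *Wwtr1* to *Yap1* shift in all 13 of its alternatives. With library size alone the median of all genes moved to 0.23, 95.1% of the genes called were higher (62.6% with TMM) and 4 of the 10 Hippo-YAP genes were called, *Ccn1* at 1.41 (adjusted p = 0.0195) and *Ccn2* at 1.02 (0.0466) being added, while *Yap1* (0.191), *Lats1* (0.072) and *Amotl2* (0.072) changed sign and the target list had 12 genes higher and 0 lower, against 8 and 1 with TMM. DESeq2 called 10 of its genes higher and 1 lower. Relative to that median *Yap1* was at -0.04. Without the livers above 25% *Mup* reads *Lats2* was at -0.078, and *Ccn1* had too few reads to be tested. With a prior count of 0.5 the *Ccn2* to *Ccn1* shift was -0.013. When livers were left out singly, the number of genes called was 1012 (without AAV-TuD 4) to 1829 of those tested, 60.96 to 66.7% of them higher, and DESeq2 called 1811. The 10 genes gave 2 to 3 calls. Log2 fold changes were -0.09 to 0.02 for *Yap1* (positive without AAV-NC 6), 0.23 to 0.35 for *Tead1*, -0.044 to 0.149 for *Lats2* (negative without AAV-NC 8 or AAV-TuD 3), 0.93 to 1.43 for *Ccn1* and 0.565 to 1.09 for *Ccn2*. The *Ccn2* to *Ccn1* shift was -0.345 to 0.23, and the target list had 7 to 9 risers and 0 to 1 lower gene. Causes of these shifts were not tested. No paired analysis was possible because AAV-NC and AAV-TuD livers share no replicate number.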
